A study of Rattus norvegicus with 6 samples.

Results

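The 10 genes described here mark immune cells: Cd3g, Cd3e and Cd3d of T cells, Ptprc and Laptm5 of leukocytes in general, Cd68, Csf1r and Lyz2 of macrophages and monocytes, and S100a8 and S100a9 of neutrophils. They were taken by symbol from 14168 named genes, each through a probe set with that single symbol in the array's annotation, and all 10 had 1 probe set. They were chosen by their log2 intensities in these same arrays, so their levels are given as a description, and their p-values, which come from a fit over all genes, support no statement about the set. The RNA came from kidney inner medulla of Sprague-Dawley rats, all male, and was hybridised to 6 arrays, 2 in each of 3 groups. The vehicle group received saline under the skin at 1 µl/h over 5 d, pumped from an osmotic device in the neck. In the dDAVP group the pump delivered dDAVP, a vasopressin analogue selective for the V2 receptor, at 40 ng/h over the same 5 d. The withdrawal group had that dDAVP infusion, after which the pump was taken out under light enflurane anaesthesia and the tissue was collected 3 h later. Removal of a pump is described for that group alone, so the end of the infusion and the procedure cannot be told apart. Whether a group's arrays stand for separate rats is not stated, so p-values measure only the spread between these arrays, which may be technical.

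T cells carry the CD3 chains gamma, delta and epsilon, which stand beside the antigen receptor and pass its signal into the cell. Ptprc encodes CD45, a tyrosine phosphatase on the surface of nearly all leukocytes. Macrophages live in the kidney interstitium, depend on the receptor Csf1r, and hold the lysosomal glycoprotein CD68 and lysozyme. S100A8 and S100A9 form calprotectin, a calcium-binding complex abundant in neutrophils and monocytes. The epithelium of the inner medulla, collecting duct above all, carries the V2 receptor that dDAVP binds.

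In the RefSeq gene order of assembly GRCr8, Cd3e, Cd3d and Cd3g are neighbours on rat chromosome 8. A window of 250 bases before a RefSeq start was found for 9 of the 10 genes, and S100a8 is named only. The windows of Cd3g, Cd3d, Ptprc, Csf1r and Lyz2 overlapped the RefSeq span of their own gene. Those of Cd3e, Laptm5, Cd68 and S100a9 did not. Promoters of 1 T cell gene and 1 macrophage gene are shown, both with windows outside the gene's own span. These genes followed different orders over the 6 arrays, given below. Both lie on the minus strand, and capitals mark the letters TTCCTC, the reverse complement of GAGGAA, a core of the sites bound by the myeloid and lymphoid factor PU.1.

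Cd3e, chr8:54211771-54212020: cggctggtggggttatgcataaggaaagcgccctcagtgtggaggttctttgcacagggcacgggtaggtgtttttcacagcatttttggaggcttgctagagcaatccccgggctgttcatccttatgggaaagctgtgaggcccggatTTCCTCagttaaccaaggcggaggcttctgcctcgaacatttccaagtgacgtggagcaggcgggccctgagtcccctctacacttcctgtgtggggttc

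Cd68, chr10:54882442-54882691: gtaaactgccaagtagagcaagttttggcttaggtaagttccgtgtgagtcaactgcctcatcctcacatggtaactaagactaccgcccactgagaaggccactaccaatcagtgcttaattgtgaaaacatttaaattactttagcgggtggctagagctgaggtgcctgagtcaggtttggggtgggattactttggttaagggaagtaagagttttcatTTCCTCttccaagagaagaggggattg

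The marked letters begin 100 bases before the start in Cd3e and 27 bases before it in Cd68. GAGGAA, searched on both strands, was present in 7 of the 9 windows, namely those of Cd3e, Ptprc, Laptm5, Cd68, Csf1r, Lyz2 and S100a9, with 2 matches in Csf1r. It was present in 23.3% of 33465 rat promoters of the same length. TGTGGT, a core of RUNX sites, was present in S100a9 alone of the 9 and in 14.5% of all promoters. TATAAA was present in Laptm5 and S100a9 and in 12.9% of all promoters. Matches did not fully divide T cell from macrophage genes. GAGGAA was present in the macrophage genes Cd68, Csf1r and Lyz2 and in Cd3e, but not in Cd3g or Cd3d.

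Arrays had median intensities of 182 and 175 in vehicle, 156 and 165 in dDAVP, and 182 and 181 in withdrawal. The median gene therefore lay 0.11 log2 lower in dDAVP than in vehicle (a difference of -0.11), 0.14 higher in withdrawal than in dDAVP, and 0.028 higher in withdrawal than in vehicle. Differences below are given as deposited, with the value after cyclic loess normalization, which brings these medians near 0, where it alters the reading. Vehicle replicate 1 and dDAVP replicate 2 stood apart: both lay more than 1 log2 from the other 4 arrays in 40 of 14168 genes. The same count was not made for other pairs of arrays. The water channel gene Aqp2 ran from 13.14 to 13.40 log2 and the urea transporter gene Slc14a2 from 11.79 to 12.55 over the arrays. Both mark the tubules of the inner medulla. In no comparison did a gene pass limma's test at a Benjamini-Hochberg adjusted p under 0.05, and the smallest adjusted p was 0.549 in dDAVP against vehicle, 0.26 in withdrawal against dDAVP, and 0.995 in withdrawal against vehicle. At an unadjusted p under 0.05 the counts were 1052 genes (81 higher, 971 lower), 2686 (2454 higher, 232 lower) and 253 (91 higher, 162 lower). After loess these splits were 252 higher and 208 lower, 452 and 470, and 116 and 182, and with array medians subtracted 372 and 123, 366 and 900, and 71 and 193.

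The CD3 genes were highest in the first vehicle array and lowest in the first withdrawal array. Cd3g, the gamma chain, measured 9.30 and 8.57 log2 in vehicle, 7.97 and 8.54 in dDAVP, and 7.36 and 8.21 in withdrawal. Both vehicle arrays lay above all 4 others as deposited, and the whole span was 3.84-fold. After loess dDAVP replicate 2 (8.58) lay above vehicle replicate 2 (8.54), so these groups overlapped, while both withdrawal arrays still lay below both vehicle arrays. The mean was 8.94 ± 0.52 (SD, n = 2) in vehicle, 8.26 ± 0.41 in dDAVP and 7.79 ± 0.60 in withdrawal. Withdrawal was 1.15 log2 below vehicle (difference -1.15 ± 0.37, SE; 2.22-fold lower), which did not pass limma's test (adjusted p = 0.995). Without both arrays that stood apart, vehicle replicate 1 and dDAVP replicate 2, the difference was -0.78. Here and below, this leaves vehicle replicate 2 and dDAVP replicate 1 alone in their groups. In bulk tissue, fewer T cells and less CD3 RNA per cell cannot be told apart.

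Cd3e, the epsilon chain, measured 7.93 and 7.61 log2 in vehicle, 7.32 and 7.58 in dDAVP, and 7.06 and 7.52 in withdrawal. Both vehicle arrays were again above the other 4 as deposited, an order found in 4.71% of all genes, but not after loess (3.89% of all genes), where dDAVP replicate 2 was at 7.65 and vehicle replicate 2 at 7.60. Withdrawal minus vehicle was -0.48 ± 0.19 log2 (adjusted p = 0.995 in limma) and dDAVP minus vehicle -0.32 ± 0.19 (adjusted p = 0.553). After loess these were -0.50 and -0.16. Cd3d, the delta chain, measured 8.18 and 7.63 log2 in vehicle, 7.05 and 7.65 in dDAVP, and 6.79 and 7.75 in withdrawal. Its groups overlapped in every comparison, since dDAVP replicate 2 and withdrawal replicate 2 both lay above vehicle replicate 2, and the withdrawal arrays enclosed both dDAVP arrays. Withdrawal minus vehicle was -0.64 ± 0.37 log2 for Cd3d and -0.36 without the arrays that stood apart. After loess all 3 CD3 genes were higher in vehicle replicate 1 and dDAVP replicate 2 than in the other 4 arrays, an order found in 15% of all genes.

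**Figure D1:**
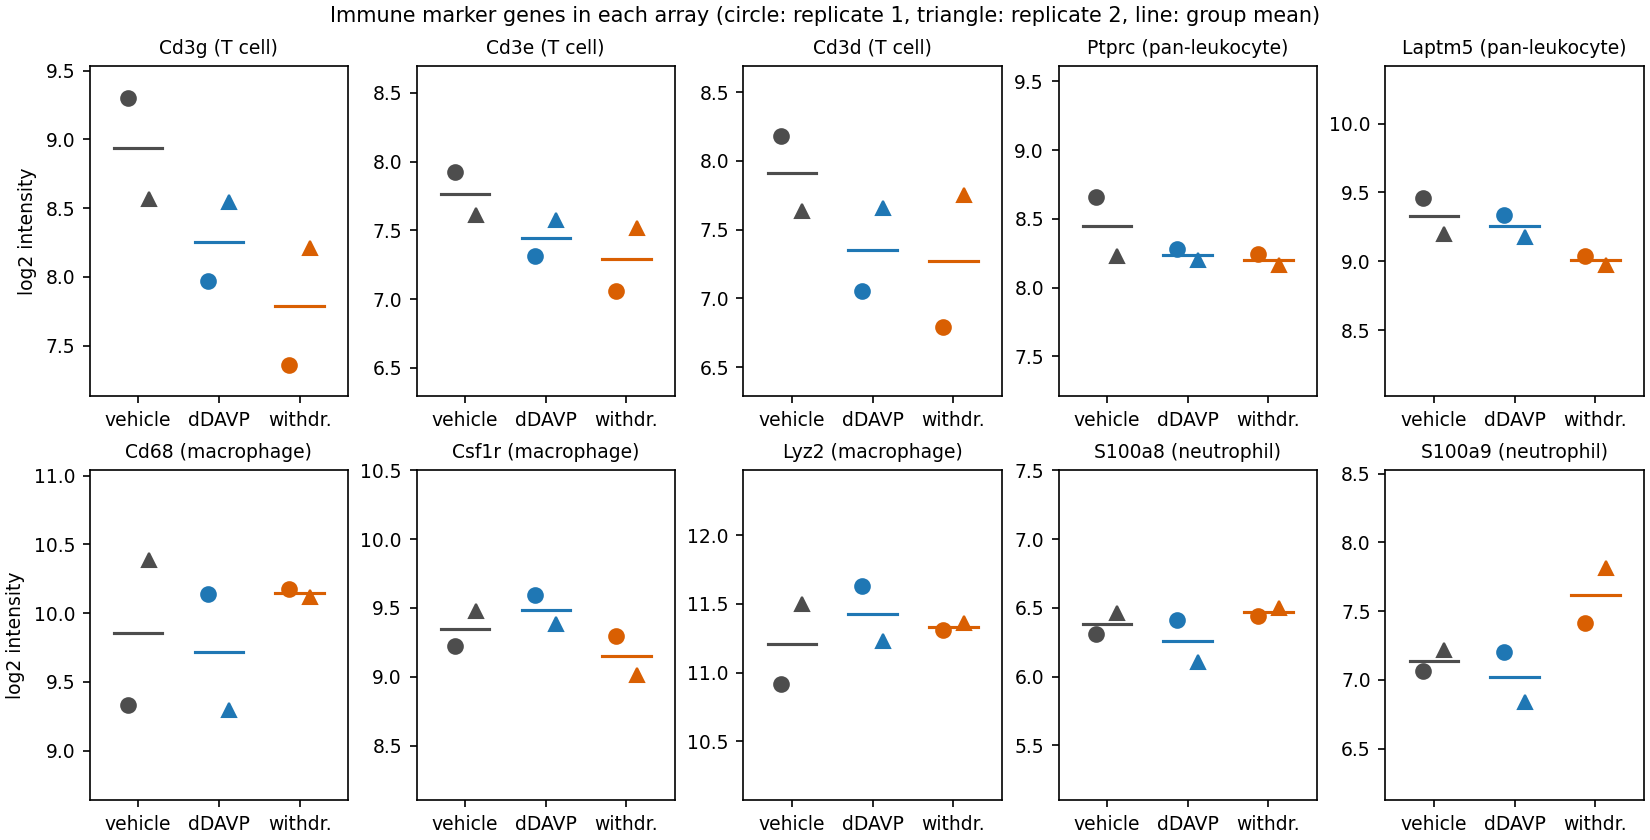
Log2 intensity of each of the 10 genes in each of the 6 arrays, with points for arrays and a bar for the group mean. Vehicle replicate 1 is the highest point for Cd3g (9.30), Cd3e (7.93) and Cd3d (8.18), and the lowest point for Lyz2 (10.92).

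On the list of T cell genes, 22 others were measured, and dDAVP against vehicle put 20 of them below 0 with a median of -0.20 log2. All genes had a median of -0.11, and 77.9% of them lay below 0. After loess 18 of the 22 lay below 0 with a median of -0.049, beside 50.2% of all genes. In withdrawal against vehicle the 22 genes had a median of -0.033 log2, beside 0.028 over all genes. Of the 22, 14 lay below 0, beside 40.5% of all genes. After loess 17 did, beside 48.6%, with a median of -0.0725. As deposited, 2 of 22 were lower at an unadjusted p under 0.05, beside 1.14% of all genes. These 2 were Cd8a, the co-receptor of cytotoxic T cells (-0.47 ± 0.17), and Cd2, an adhesion receptor (-0.36 ± 0.14). Cd8a measured 7.78 and 7.47 log2 in vehicle, 7.09 and 7.39 in dDAVP, and 7.01 and 7.29 in withdrawal. It shared with the CD3 genes a maximum in vehicle replicate 1 and a minimum in withdrawal replicate 1. That order was found in 6 of 25 T cell genes (Cd2, Cd247, Cd8a and the CD3 genes) and in 1.37% of all genes, and after loess in 10 of 25 and 2.99%. Without Cd3g, Cd3e and Cd3d, which were chosen with their values in view, the counts were 3 of 22 and, after loess, 7 of 22. Cd247 had the order narrowly, at 6.7295 log2 in withdrawal replicate 1 and 6.7306 in vehicle replicate 2, and not after loess. In dDAVP against vehicle the genes with the smallest p on this list were Ctla4, an inhibitory receptor (-0.34 ± 0.11), and Lck, the kinase that phosphorylates CD3 (-0.39 ± 0.14), and in withdrawal against dDAVP Ctla4 (0.37 ± 0.11) and the co-stimulatory receptor Cd28 (0.37 ± 0.12). After loess these values were -0.19, -0.24, 0.16 and 0.16. None passed after adjustment (limma, adjusted p = 0.549 and 0.26).

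Markers of some other cells were also high in vehicle replicate 1. Of 7 red blood cell genes measured, Ahsp, Alas2, Hbb-b1 and Hemgn were higher in vehicle replicate 1 and dDAVP replicate 2 than in the other 4 arrays, an order found in 10.9% of all genes. The summed intensity of the 7 genes was 5538 and 4169 in vehicle, 3857 and 5293 in dDAVP, and 3738 and 3785 in withdrawal. Alas2, which makes heme in red cell precursors, measured 9.03 and 8.19 log2, 7.73 and 8.89, and 8.07 and 7.87. On the list of cortex genes, 3 of 8 (Kap, Lrp2 and Slc22a6) had the same order, and the sums were 1509 and 1415, 1116 and 1471, and 1259 and 1338. Cytotoxic cell genes were highest in vehicle replicate 1 in 9 of 12, beside 24.3% of all genes. The lowest intensity of any probe set was 30.2, so a level above 0 does not show that a marker's cells were present. The part of blood, cortex or cytotoxic cells in the CD3 values was not tested.

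Ptprc and Laptm5, which leukocytes of all kinds carry, had their maximum in vehicle replicate 1, as the CD3 genes did, and their minimum in withdrawal replicate 2. Ptprc measured 8.66 and 8.23 log2 in vehicle, 8.28 and 8.20 in dDAVP, and 8.24 and 8.16 in withdrawal. Vehicle replicate 1 was high, the other 5 arrays lay close together, and the groups overlapped. Withdrawal minus vehicle was -0.24 ± 0.15. Laptm5, a lysosomal membrane protein that dampens receptor signalling in lymphocytes, measured 9.46 and 9.20 log2 in vehicle, 9.33 and 9.18 in dDAVP, and 9.04 and 8.97 in withdrawal. Both withdrawal arrays lay below the other 4, an order seen in 3.9% of all genes as deposited and 7.47% after loess. Withdrawal minus vehicle was -0.32 ± 0.12 (adjusted p = 0.995 in limma) and withdrawal minus dDAVP -0.25 ± 0.12 (adjusted p = 0.297). Without the arrays that stood apart, the difference from vehicle was -0.19.

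Of 22 other pan-leukocyte genes, 21 lay below 0 in dDAVP against vehicle (median -0.18 log2), beside 77.9% of all genes, 7 in withdrawal against dDAVP (median 0.12), beside 25.1% of all genes, and 17 in withdrawal against vehicle (median -0.11), beside 40.5%. After loess the counts were 16, 12 and 17 of 22 (medians -0.084, -0.033 and -0.13), beside 50.2%, 49.1% and 48.6% of all genes. The smallest p in the first comparison were those of Inpp5d, a lipid phosphatase (-0.32 ± 0.09), and Itgal, an integrin chain (-0.29 ± 0.11). In the second, Cytip, a cytohesin-binding protein, was at 0.59 ± 0.23, and in the third Rac2, a GTPase of leukocytes, was at -0.32 ± 0.14. After loess these were -0.15, -0.12, 0.43 and -0.31. None of these passed after adjustment. Cd37, Cd52, Coro1a, Hcls1, Lcp1 and Rac2 were higher in both arrays that stood apart than in the other 4 (6 of 24 measured, beside 10.9% of all genes, and after loess 7 of 24, beside 15%). On the T cell list this order was found in 3 of 25 genes as deposited and in 9 of 25 after loess, the CD3 genes among the 9.

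**Figure D2:**
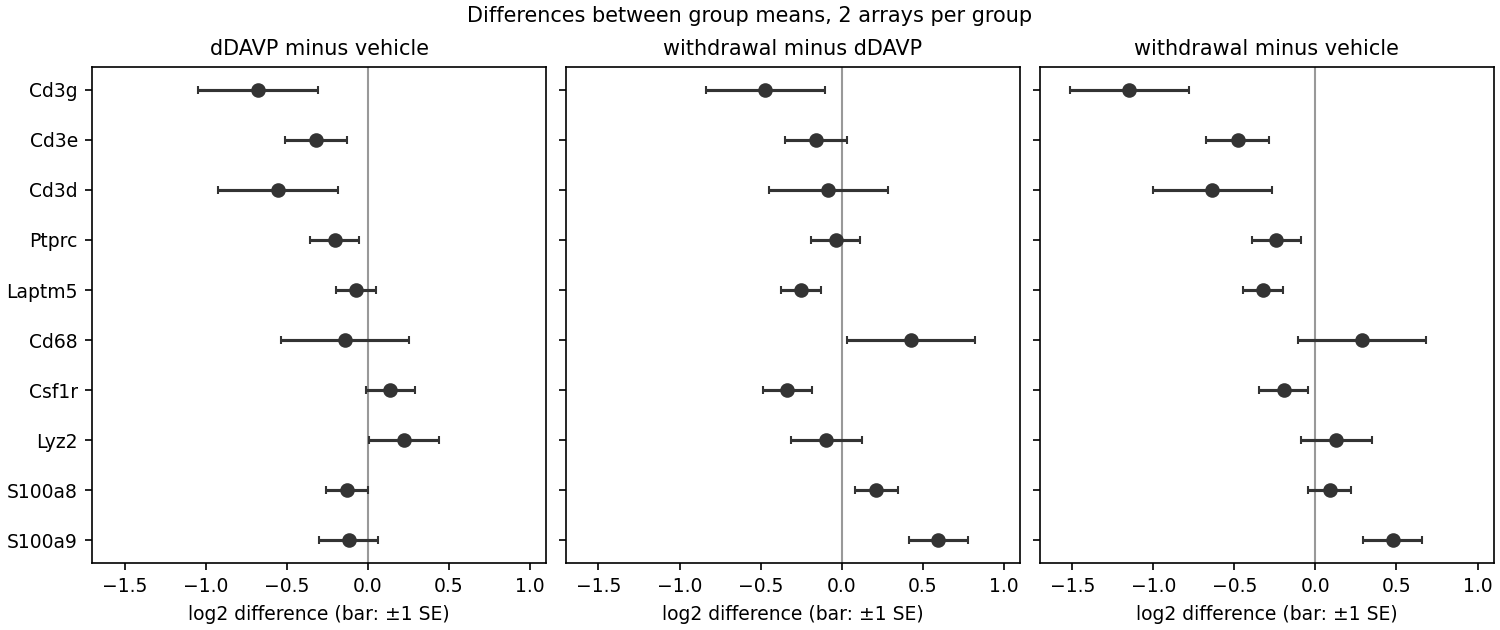
Differences between group means of the 10 genes, in log2, with bars of 1 SE from limma, for dDAVP minus vehicle, withdrawal minus dDAVP and withdrawal minus vehicle. The farthest point is Cd3g at -1.15 in withdrawal minus vehicle, and Cd68, S100a8 and S100a9 lie above 0 in both comparisons with withdrawal.

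Cd68 and Lyz2 had another order over the arrays than the CD3 genes, and Csf1r had neither order. Cd68 measured 9.33 and 10.39 log2 in vehicle, 10.14 and 9.29 in dDAVP, and 10.18 and 10.12 in withdrawal. Vehicle replicate 1 and dDAVP replicate 2 were low, and the other 4 arrays lay within 10.12 to 10.39. The vehicle and dDAVP groups thus held 1 low and 1 high array each, with means of 9.86 ± 0.75 and 9.72 ± 0.60, and withdrawal held 2 high ones, with a mean of 10.15 ± 0.04. Withdrawal minus vehicle was 0.29 ± 0.39 log2, and without the arrays that stood apart it was -0.24. Lyz2, lysozyme, measured 10.92 and 11.50 log2 in vehicle, 11.63 and 11.23 in dDAVP, and 11.31 and 11.36 in withdrawal, with the same 2 arrays below the rest. Its withdrawal minus vehicle difference was 0.13 ± 0.22.

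Csf1r, the receptor that macrophages need for survival, measured 9.22 and 9.47 log2 in vehicle, 9.59 and 9.38 in dDAVP, and 9.29 and 9.01 in withdrawal. Both dDAVP arrays were above both withdrawal arrays, and neither group was clear of vehicle. Withdrawal minus dDAVP was -0.33 ± 0.15 (adjusted p = 0.271 in limma). The order with vehicle replicate 1 and dDAVP replicate 2 both lowest was found in Cd68, Lyz2, S100a8 and S100a9, and in 12.7% of all genes.

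The other macrophage and monocyte genes showed the same split in part. On that list, 8 of 26 genes without the members had both those arrays lowest: Adgre1, C1qa, C1qb, Cd14, Ctss, Gpnmb, Lilrb4 and Tyrobp. After loess the count was 10 of 26, and over all genes it was 15.4%. The order was not particular to these cells. It was found in 4 of 13 genes of inner medulla epithelium (Aqp4, Gata3, Krt8 and Slc14a2), as deposited and after loess. Of 6 platelet genes, 1 had it as deposited and 3 after loess. Gpnmb, a glycoprotein of phagocytes, measured 9.07 and 11.34 log2 in vehicle, 11.25 and 9.41 in dDAVP, and 11.39 and 10.99 in withdrawal. C1qa, a chain of the first complement component, measured 9.72 and 10.38 in vehicle, 10.26 and 9.52 in dDAVP, and 10.10 and 9.78 in withdrawal. Both are named here after inspection of their values, as are the other genes listed by their order over the arrays. The summed intensity of the 29 macrophage genes was 14388 and 20449 in vehicle, 19132 and 14056 in dDAVP, and 19369 and 17763 in withdrawal. These sums include the members Cd68, Csf1r and Lyz2. Bright genes weigh most in them, so they do not show a split across the whole list.

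The macrophage genes with the smallest p in dDAVP against vehicle were Fcgr3a, an Fc receptor (-0.54 ± 0.13), and Itgam, an integrin chain of myeloid cells (-0.42 ± 0.11), and 6 of 26 were lower at an unadjusted p under 0.05, beside 6.85% of all genes. After loess these genes were at -0.43 and -0.27, and 2 of 26 were lower, beside 1.47%. Withdrawal against dDAVP had Siglec1 (0.37 ± 0.09) and Fcgr2b (0.32 ± 0.09) in front, and 5 of 26 higher, beside 17.3% of all genes. After loess they were at 0.16 and 0.11, and 1 of 26 was higher, beside 3.19%. Withdrawal against vehicle had Trem2, a lipid receptor of phagocytes (-0.42 ± 0.10), and the scavenger receptor Cd163 (-0.32 ± 0.16). None passed after adjustment. The medians of the 26 were -0.16, 0.16 and -0.019 log2 in these comparisons, against -0.11, 0.14 and 0.028 over all genes, and after loess -0.043, 0.085 and -0.016. Cd4 is on the T cell list, rat macrophages also carry it, and it is named here after inspection of its values. It lay at 7.54 and 7.83 log2 in vehicle, 7.98 and 7.54 in dDAVP, and 7.69 and 7.19 in withdrawal. Unlike the CD3 genes, it was highest in dDAVP replicate 1 and lowest in withdrawal replicate 2.

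**Figure D3:**
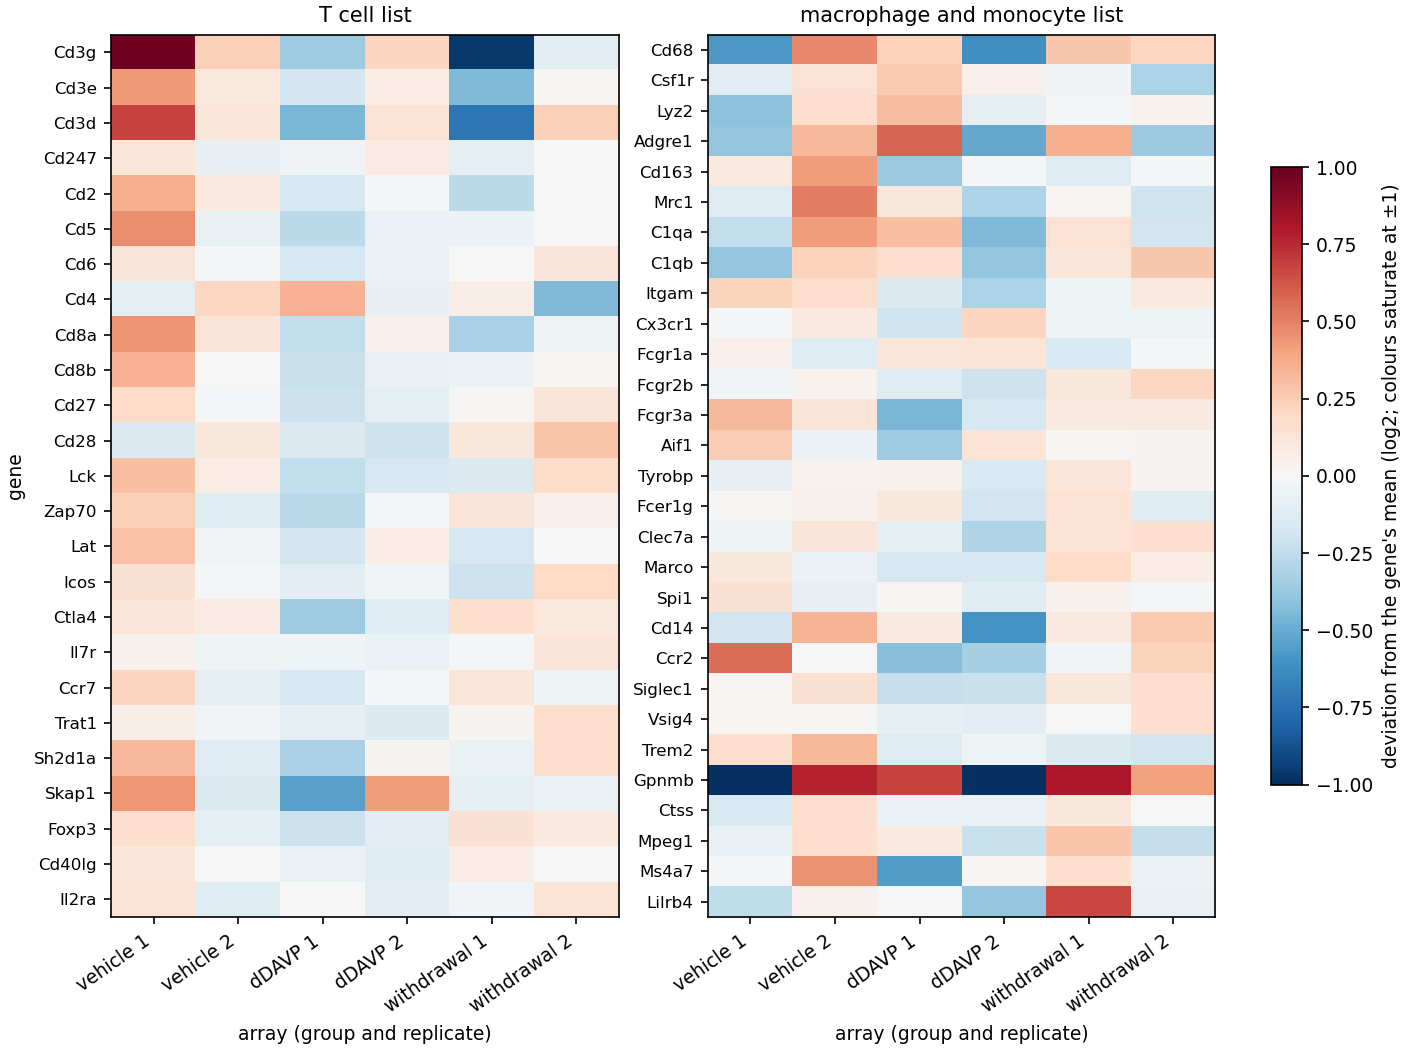
Deviation of each measured gene of the T cell list and of the macrophage and monocyte list from its mean over the 6 arrays, in log2, with colours that saturate at 1 in either direction. Gpnmb lies at 9.07 in vehicle replicate 1 and 9.41 in dDAVP replicate 2, below the other arrays, and Cd3g at 9.30 in vehicle replicate 1, above the others.

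S100a9 had both withdrawal arrays above the other 4. It measured 7.07 and 7.21 log2 in vehicle, 7.20 and 6.84 in dDAVP, and 7.42 and 7.82 in withdrawal, with means of 7.14 ± 0.11, 7.02 ± 0.26 and 7.62 ± 0.28. Withdrawal minus dDAVP was 0.60 ± 0.18 log2 (1.51-fold higher; adjusted p = 0.26 in limma) and withdrawal minus vehicle 0.48 ± 0.18 (adjusted p = 0.995). After loess the differences were 0.40 and 0.45, and dDAVP replicate 1 (7.37) then lay above withdrawal replicate 1 (7.35). Without the arrays that stood apart they were 0.41 and 0.40. The order with both withdrawal arrays highest was found in 14.7% of all genes as deposited and 7.79% after loess.

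S100a8, its partner, measured 6.31 and 6.46 log2 in vehicle, 6.41 and 6.10 in dDAVP, and 6.44 and 6.50 in withdrawal. Its arrays spanned little, it was the 1 member that a filter on dim genes removed, and withdrawal minus dDAVP was 0.21 ± 0.13 as deposited and 0.0029 after loess, with groups that then overlapped. Vehicle overlapped both other groups. On the neutrophil list without these genes, 7 of 22 were higher in withdrawal than in dDAVP at an unadjusted p under 0.05, beside 17.3% of all genes, and after loess 1 of 22 was, beside 3.19%. Padi4, which citrullinates histones, was at 0.44 ± 0.10 and the decoy receptor Il1r2 at 0.31 ± 0.10, and after loess they were at 0.28 and 0.10. Withdrawal against vehicle had Fcnb, a ficolin (0.43 ± 0.20), and Lcn2, neutrophil gelatinase-associated lipocalin, which injured tubules also make (1.07 ± 0.65), first by p. Lcn2 measured 8.81 and 9.76 log2 in vehicle, 10.04 and 8.34 in dDAVP, and 9.77 and 10.95 in withdrawal. None passed after adjustment. With S100a9, 5 of 24 neutrophil genes (Camp, Fcnb, Il1r2 and Mpo the others) had both withdrawal arrays highest, beside 14.7% of all genes. After loess Mpo alone of the list did, beside 7.79% of all genes.

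Several genes that draw leukocytes into tissue were low in the same arrays as Cd68 and Lyz2. Both vehicle replicate 1 and dDAVP replicate 2 were lowest in 10 of 25 such genes, Ccl2, Ccl7, Csf1, Csf3, Cxcl1, Cxcl2, Icam1, Il1b, Il6 and Tnf, beside 12.7% of all genes, and in 8 of 25 after loess, beside 15.4%. Ccl7, a monocyte chemokine, measured 8.29 and 10.98 log2 in vehicle, 11.47 and 8.55 in dDAVP, and 11.11 and 11.53 in withdrawal. Csf1, the ligand of Csf1r, measured 8.52 and 9.86 in vehicle, 9.49 and 8.29 in dDAVP, and 9.47 and 9.15 in withdrawal. These were picked on their values. By p, Cxcl13, a B cell chemokine, came first in dDAVP against vehicle (-0.60 ± 0.09), followed by the T cell chemokine Ccl5 (-0.45 ± 0.15). Csf3, the neutrophil growth factor, was at 0.85 ± 0.22 in withdrawal against dDAVP and at 0.79 ± 0.22 in withdrawal against vehicle, and Cxcl10 at 0.83 ± 0.24 in the former. After loess Cxcl13 was at -0.43, Ccl5 at -0.42, Csf3 at 0.67 and 0.77, and Cxcl10 at 0.82. None passed after adjustment.

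**Figure D4:**
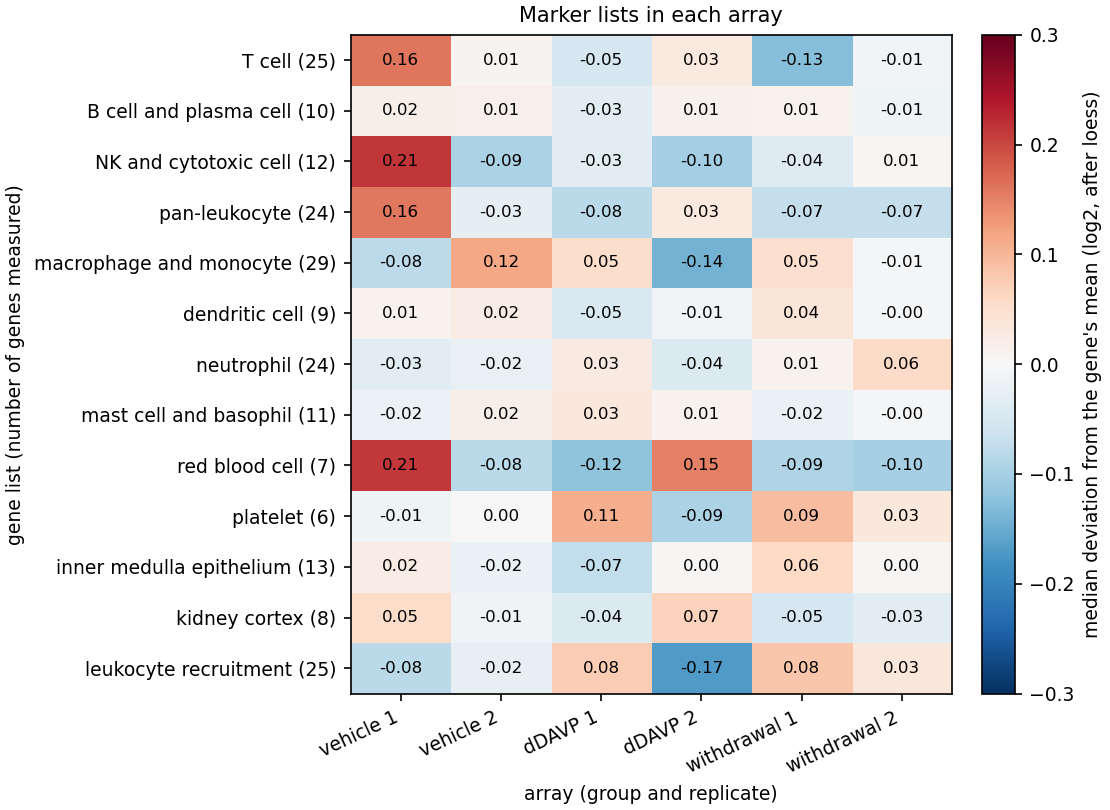
Median deviation of each marker list in each array, in log2 after loess normalization, with the number of genes measured beside each list. Vehicle replicate 1 and dDAVP replicate 2 are low for the macrophage and leukocyte recruitment lists and high for the red blood cell list.

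The remaining lists give the background of other cells. In dDAVP minus vehicle, withdrawal minus dDAVP and withdrawal minus vehicle, the median differences were -0.18, 0.22 and 0.047 log2 for 10 B and plasma cell genes, -0.31, 0.28 and -0.015 for 12 cytotoxic cell genes, and -0.17, 0.22 and 0.054 for 9 dendritic cell genes. They were -0.11, 0.15 and 0.015 for 11 mast cell and basophil genes, -0.19, 0.093 and -0.11 for 7 red blood cell genes, and -0.14, 0.26 and 0.12 for 6 platelet genes. They were -0.068, 0.17 and 0.11 for 13 genes of inner medulla epithelium, -0.22, 0.14 and -0.060 for 8 cortex genes, and -0.083, 0.27 and 0.12 for 25 leukocyte recruitment genes. Beside them stand medians of -0.11, 0.14 and 0.028 over all genes. After loess the medians of the first pair of comparisons were -0.025 and 0.023 for B and plasma cell genes, -0.15 and 0.067 for cytotoxic cell genes, -0.047 and 0.021 for dendritic cell genes, 0.042 and -0.064 for mast cell and basophil genes, and -0.040 and -0.096 for red blood cell genes. They were -0.020 and 0.063 for platelet genes, -0.032 and 0.15 for epithelium, -0.055 and -0.045 for cortex, and 0.021 and 0.10 for leukocyte recruitment. No gene of these lists passed in limma, and examples of those first by p on their list were Klrk1, a receptor of natural killer cells (-0.35 ± 0.10 and 0.47 ± 0.10 in the first 2 comparisons), Clec10a, a lectin (-0.57 ± 0.17 in the first), and Jchain, the joining chain of antibodies (0.35 ± 0.12 in the second). After loess Klrk1 was at -0.18 and 0.26, Clec10a at -0.48 and Jchain at 0.14.

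Over all 10 genes, dDAVP against vehicle put 8 below 0 (77.9% of all genes) with a median of -0.13 log2, beside -0.11 over all genes. After loess 6 were below 0 (50.2%), with a median of -0.073. None of the 10 reached an unadjusted p under 0.05 in limma there, as deposited (6.85% of all genes lower, 0.572% higher) or after loess (1.47% and 1.78%). Withdrawal against dDAVP put 7 below 0 (25.1%) with a median of -0.088, beside 0.14, and after loess 7 (49.1%) with a median of -0.19. S100a9 was higher at that p as deposited (17.3%) and 0 were lower (1.64%), and after loess 0 were higher (3.19%) or lower (3.32%). Withdrawal against vehicle put 6 below 0 (40.5%) with a median of -0.22, beside 0.028, and after loess 6 (48.6%) with a median of -0.21. Cd3g, Cd3e and Laptm5 were lower (1.14%) and S100a9 higher (0.642%) at that p as deposited, and after loess only Cd3g and Cd3e were lower (1.28%) and 0 higher (0.819%).

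Which members did not overlap between groups changed with the scaling, except in withdrawal against vehicle. In dDAVP against vehicle it held for Cd3g and Cd3e as deposited, both lower (40.6% of all genes lower, 4.8% higher), and for 0 members after loess (14.8% and 15.2%). In withdrawal against dDAVP it held as deposited for S100a8 and S100a9, higher (49.6%), and Laptm5 and Csf1r, lower (8.06%), and after loess for Laptm5, Csf1r, Ptprc and Cd3e, lower (19.1%), and for 0 higher (20.3%). In withdrawal against vehicle S100a9 was higher (17.6%) and Cd3g, Cd3e and Laptm5 lower (13.1%) as deposited, and the same genes were so after loess (16.1% and 16%). The 3 comparisons share arrays, so their differences are not independent. A span of at least 1 log2 over the arrays was found for Cd3g, Cd3d and Cd68 and for 3.4% of all genes.

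Genes most like a member were sought by the root mean square difference between deviations from each gene's mean over the 6 arrays, for the 4 members with an SD of at least 0.3 log2, among 13966 genes. Cd3g was closest to Cd3d (0.23 log2), then to Anpep, aminopeptidase N (0.25), and Erg, an endothelial transcription factor (0.29), and 9 genes were closer than Cd3e. Cd3d was closest to Rbp4, a retinol carrier (0.20), Coro2a, a coronin (0.20), and Cd3e (0.21), and 8 genes were closer than Cd3g. Cd68 was closest to Aen, a nuclease (0.074), Zfand2a, a stress-responsive zinc finger gene (0.089), and Cyp51, an enzyme of cholesterol synthesis (0.10). Lyz2 was farther from Cd68 (0.29), with 556 genes closer. S100a9 was closest to Sdhaf3 (0.079), Scand1 (0.080) and the tubulin gene Tubb2a (0.082), and 904 genes were closer to it than S100a8. The CD3 genes were thus near each other in this measure. Lyz2 was not among the genes nearest to Cd68, nor S100a8 among those nearest to S100a9. Nearest genes of Lyz2 and S100a8 were not sought, since their SDs were lower. The measure depends on the size of the deviations as well as on their order over the arrays.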

How the data were processed

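Total RNA of kidney inner medulla was extracted with Trizol and labelled for 6 whole-transcript arrays, per the labels' protocols. The authors deposited 1 RMA intensity per probe set and array, per the submitters' processing notes; the values are on a linear scale (30.2 to 10778.7) and log2 was taken here. The RMA version and genome build are not given in sources at hand, and without scan dates batches were not looked for. Of 28524 probe sets, 14947 had 1 symbol, 318 several and 13259 none; the brightest per symbol gave 14168 genes. Groups were compared with limma 3.58.1 (R 4.3.3): 1 mean per group over all 6 arrays, eBayes with 3 residual and 3.21 prior degrees of freedom, two-sided, Benjamini-Hochberg over all genes; errors of differences are moderated SEs. With 2 arrays per group, the number of arrays limits the precision. The test was tested on simulated data. Members and the 13 lists (203 of 242 genes measured) were chosen with earlier results of these data known. On each list the 2 genes with the smallest p per comparison, and for members with an SD of at least 0.3 the 3 nearest genes, are named; others are said to be chosen after seeing values. Array order counts also name genes. Promoters and gene order are RefSeq's, assembly GRCr8. Alternatives were array medians subtracted, cyclic loess, a filter on dim genes, a pseudocount of 32, a variance trend, a replicate block and leaving out arrays.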

Additional observations from a re-analysis of the deposited data

How the results depend on the processing

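No member passed an adjusted p under 0.05 under any of the alternatives, 267 member differences under other settings and 180 with 1 array left out (limma). Direction turned in 8 of the former. Leaving out both arrays that stood apart kept vehicle replicate 2 and dDAVP replicate 1 alone in their groups. Ptprc and Laptm5 in dDAVP minus vehicle were then at 0.046 and 0.14 log2. Cd3d in withdrawal minus dDAVP was at 0.22, and Cd68 and Lyz2 in withdrawal minus vehicle at -0.24 and -0.16. With array medians subtracted Laptm5 in dDAVP minus vehicle was at 0.042, and after cyclic loess S100a8 and S100a9 there were at 0.030 and 0.047. The cause was not tested.

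With 1 array left out, the median of the 10 genes ran from -0.25 to 0.0157 in dDAVP minus vehicle and from -0.16 to 0.0129 in withdrawal minus dDAVP. In dDAVP minus vehicle, Ptprc ran from -0.42 to 0.0066, Laptm5 from -0.21 to 0.057, Cd68 from -0.67 to 0.39, Lyz2 from -0.067 to 0.51, S100a8 from -0.28 to 0.027 and S100a9 from -0.30 to 0.064. In withdrawal minus dDAVP, Cd3e ran from -0.39 to 0.070, Cd3d from -0.56 to 0.40, Ptprc from -0.078 to 0.0055 and Lyz2 from -0.29 to 0.11. In withdrawal minus vehicle, Cd68 ran from -0.24 to 0.82 and Lyz2 from -0.16 to 0.42. The number of genes passing ran from 0 to 2 in the comparisons with dDAVP: without dDAVP replicate 1, Ypel4 and Fam111a passed, at 11.89 and 6.77 log2 in dDAVP replicate 2.

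Counts at an unadjusted p under 0.05, in the order of the report, were 1052, 2686 and 253 as reported, 460, 922 and 298 after loess, 495, 1266 and 264 with array medians subtracted, 488, 1191 and 161 without dim genes, and 1651, 3464 and 303 with a variance trend. Whether the replicate numbers pair the arrays is not stated. Differences between replicates 1 and 2 correlated over genes at -0.632 (vehicle and dDAVP), -0.016 (vehicle and withdrawal) and -0.103 (dDAVP and withdrawal). These values describe likeness between arrays and cannot show whether arrays were paired by design. With a replicate block 0 genes passed and the counts were 490, 1518 and 128. With the dDAVP numbers exchanged, chosen after seeing the data, 0 passed and the counts were 1393, 3264 and 736. The 2 arrays per group and the unknown background limit all values, S100a8 most.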
